A study of Mus musculus with 8 samples.

Results

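The 33 genes described here encode the stress sensors, transcription factors, chaperones and degradation factors of the endoplasmic reticulum (ER). They were chosen by name as genes of the unfolded protein response and of ER-associated degradation. The rule uses no measured value, but earlier results of these data were known when the list was made. All 33 were among the 23369 genes of the count table, and all 33 passed the filter on low counts with which 12610 genes were tested. Their RNA was sequenced in neutrophils sorted as CD45+CD11b+Ly6G+ cells from spinal cord. The donors were C57BL/6N mice in which experimental autoimmune encephalomyelitis (EAE), a model of multiple sclerosis, had been induced. The design has 2 groups, ZT1 (1 h after lights-on, n = 4) and ZT13 (13 h after lights-on, n = 4), and every mouse of both groups had EAE. The labels give 11000 to 50000 sorted cells per mouse and no animal identifiers or ages, so the tests treat the 8 samples as independent. Where that does not hold, the p-values describe a spread that may be technical.

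Secreted and membrane proteins fold in the ER with the help of chaperones and of enzymes that form disulfide bonds. When unfolded proteins accumulate, 3 membrane sensors respond: IRE1 (gene Ern1), which splices the mRNA of Xbp1, ATF6, which is cleaved into a transcription factor, and PERK (gene Eif2ak3), which slows translation and favours synthesis of ATF4. Proteins that fail to fold are recognised by lectins, drawn back through the membrane and degraded by the proteasome. Neutrophils fill their granules during maturation in the bone marrow, and the precursors that do so make large amounts of secretory protein.

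The promoters of several members share a sequence that ties them to this response. The ER stress response element, ERSE, is known as a binding site of ATF6 and XBP1 next to the general factor NF-Y, and has the letters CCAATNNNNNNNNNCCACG. It was searched on both strands of the RefSeq promoter windows of GRCm38.p6, which run from 250 bases before to 50 bases after a start site. Windows were found for 29 of the 33 members, and 8 of the 29 (27.6%) held an ERSE, against 0.137% of all 27025 genes with a window and 0.119% of all 32851 windows of this length. The sites are printed 5′ to 3′ on their own strand with 5 bases on either side, and capitals mark the fixed letters of the element.
Hspa5, chr2:34772020-34772048 (+): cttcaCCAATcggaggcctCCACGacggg
Hsp90b1, chr10:86705633-86705661 (-): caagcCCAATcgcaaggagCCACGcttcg
Hsp90b1, chr10:86705528-86705556 (+): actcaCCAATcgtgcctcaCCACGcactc
Dnajc3, chr14:118937822-118937850 (+): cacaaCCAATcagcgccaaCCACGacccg
Creld2, chr15:88819515-88819543 (-): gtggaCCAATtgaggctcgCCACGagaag
Calr, chr8:84847070-84847098 (+): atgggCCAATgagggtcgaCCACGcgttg
Canx, chr11:50325795-50325823 (-): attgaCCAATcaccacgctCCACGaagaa
Pdia6, chr12:17266486-17266514 (+): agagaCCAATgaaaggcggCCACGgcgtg
Syvn1, chr19:6046527-6046555 (+): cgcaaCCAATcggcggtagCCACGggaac
The 9 elements ended between 26 and 194 bases before the RefSeq start. In the GENCODE M21 annotation the Hspa5 site overlaps an exon of Hspa5, and the other sites overlap no exon. A shorter variant, ERSE-II (ATTGG and CCACG with 1 base between them), was found in 1 member, Herpud1, and in 0.0444% of all genes.
Herpud1, chr8:94386372-94386392 (+): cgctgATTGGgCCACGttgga
A further element, TGATGNAA, is the core of the composite site at which C/EBP and ATF factors such as ATF4 and CHOP bind. It lay in the windows of 4 members (13.8%), Chac1, Trib3, Asns and Herpud1, against 4.51% of all genes. The 3 matches before the start are shown, of which that of Asns overlaps an exon of Asns, and the match of Trib3 lies after the start.
Chac1, chr2:119351044-119351061 (-): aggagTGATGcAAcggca
Asns, chr6:7693220-7693237 (-): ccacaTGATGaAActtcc
Herpud1, chr8:94386312-94386329 (-): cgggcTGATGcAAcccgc
The UPRE core TGACGTGG was in 0 of the 29 members and 0.714% of all genes. No 2 matches overlapped in the members. A match is a description of the letters in these windows, and the members were in part known as a family through such elements.

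Levels differed widely between the members. Per kb of exon, the only scale on which genes are compared with each other here, Hspa5 (BiP, the ER HSP70 chaperone) was the highest, at 219 CPM per kb at ZT1 and 197 at ZT13. CPM are counts scaled to the library size with TMM factors. Pdia3 followed with 147 and 143 and Xbp1 with 111 and 97.5. At the lower end stood the IRE1 sensor Ern1, with 1.84 and 1.59 CPM per kb, Hyou1 with 2.50 and 2.00, Chac1 with 2.90 and 3.74 and Trib3 with 3.53 and 3.19. Together the members took 0.477 to 0.562% of all counts in the ZT1 libraries and 0.412 to 0.482% in the ZT13 libraries. These ranges overlapped through ZT13 replicate 4, which lay above ZT1 replicate 3.

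**Figure D1:**
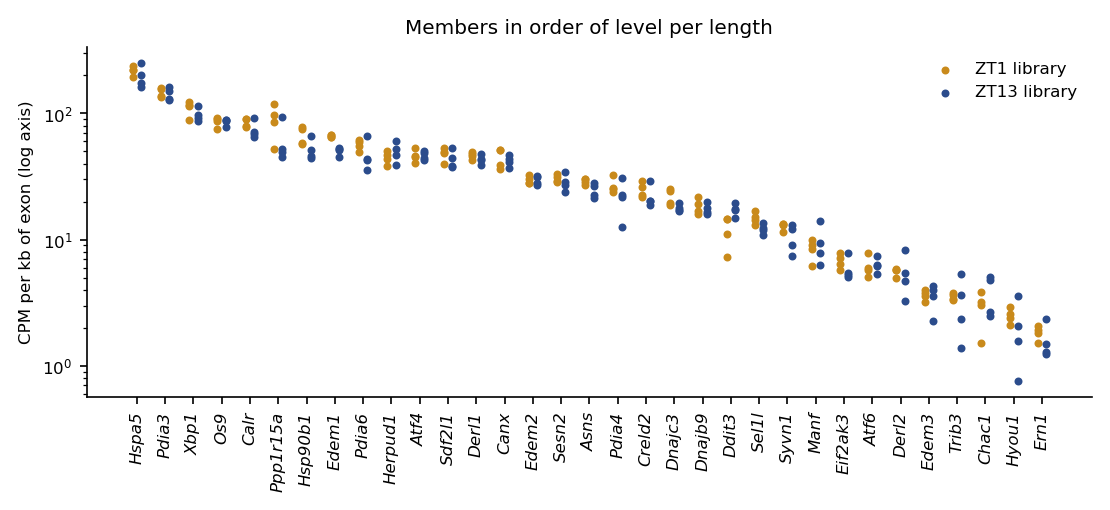
Levels of the 33 members in CPM per kb of exon on a log axis, in order of the mean level, with 1 point per library (ZT1 left of centre, ZT13 right of centre, 4 each). Hspa5 is at the top and Ern1 at the bottom, and within most genes the points of both groups interleave.

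Most members had lower mean levels at ZT13, and no member passed the test over all genes. Of the 33 log2 fold changes (ZT13 over ZT1), 27 were negative, where 52.3% of all tested genes and 58.7% of the 2886 genes averaging 50 CPM or more were negative. The median was -0.15, against -0.02 over all tested genes. The lowest level lay in ZT13 replicate 1 for 10 members and in ZT13 replicate 2 for 7. ZT13 replicate 4 held the highest level for 10 members and the lowest for 6. Such extremes were not counted over all genes. Without ZT13 replicate 2 the median was -0.07, and 26 of the 33 members were negative. With any single library left out 24 to 28 members were negative, the fewest without ZT13 replicate 1. In the quasi-likelihood test of edgeR 0 members and 0% of all genes had an adjusted p under 0.05. At an unadjusted p under 0.05 there were 4 members with lower values at ZT13 (Edem1, Sel1l, Dnajc3 and Hsp90b1), where 4.85% of all genes were in that class, and 1 with higher values (Ddit3), where 4.35% were. Among the 22 members averaging 50 CPM or more, 4 were in the lower class, where 9.18% of the genes of that level were. Of the 22, 1 (Edem1) had groups without overlap, lower at ZT13, as did 4.75% of the genes of that level. DESeq2 called 1 member, Edem1, and 1.7% of the genes it tested. All 33 members share the same 8 libraries and are not independent of each other, so that these counts are descriptions.

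**Figure D2:**
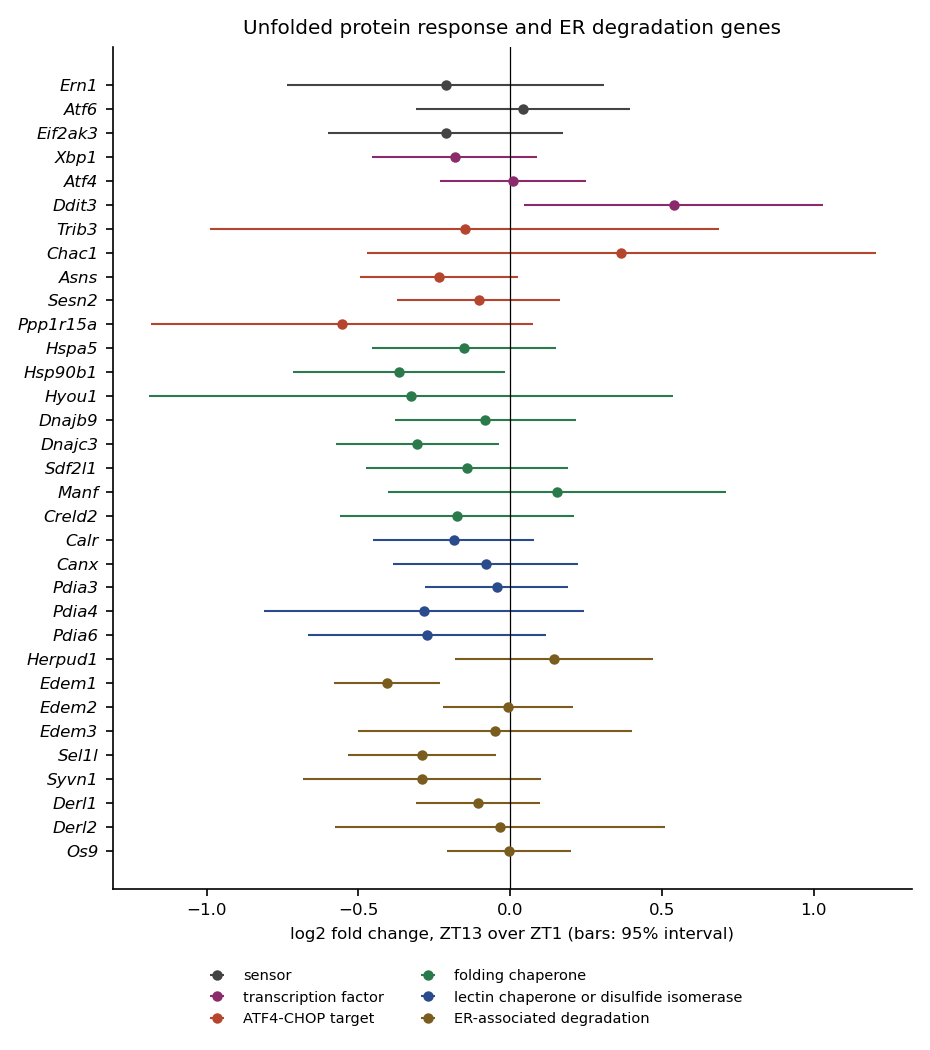
Log2 fold change of each member for ZT13 over ZT1 (points) with its 95% interval (bars) from the edgeR fit over 4 and 4 libraries, coloured by role. The intervals of Edem1, Sel1l, Dnajc3, Hsp90b1 and Ddit3 lie on 1 side of 0, and 27 of the 33 points lie left of it.

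The intervals set limits on what these libraries can show. For 29 members the 95% interval lay inside a 2-fold change in either direction, and for 21 inside a 1.5-fold change. The other 4 were Chac1, Ppp1r15a, Hyou1 and Ddit3, whose intervals reached beyond 2-fold in 1 direction. All members stood far above the floor of detection: 3 counts correspond to 0.0414 to 0.0673 CPM in these libraries, and the lowest member value was 2.48 CPM.

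Among the 9 factors of ER-associated degradation, Edem1 differed most. Edem1 encodes a lectin-like protein that marks glycoproteins for degradation by trimming their mannose residues, and is a known target of XBP1. It stood at 434, 420, 437 and 423 CPM in ZT1 replicates 1 to 4 and at 289, 336, 341 and 329 CPM in ZT13 replicates 1 to 4. The 4 ZT1 libraries lay close together and every ZT13 library was below all of them; the groups did not overlap, as for 2.99% of all tested genes in that direction. The means were 429 ± 7.95 and 324 ± 23.5 CPM (SD, n = 4), with a log2 fold change of -0.40 ± 0.08 (SE, 95% interval from -0.58 to -0.23). The difference was not past the threshold in edgeR (rank 21 of 12610 by p, adjusted p = 0.248 in edgeR), and the adjusted p with each library left out ran from 0.131 to 0.616 in edgeR. DESeq2 called it (adjusted p = 0.000126 in DESeq2, and at most 0.00516 with any library left out). Edem1 (ENSMUSG00000030104.10) lies on the + strand of chromosome 6 from 108828641 to 108859356 on GRCm38, a protein-coding gene.

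The paralogs of Edem1 had log2 fold changes near 0; the difference from Edem1 was not tested. Edem2 stood at 97.9 to 112 CPM at ZT1 and 94.6 to 110 at ZT13, with a log2 fold change of -0.01 ± 0.10 (95% interval from -0.22 to 0.21). Edem3 stood at 20.5 to 25.6 and 14.5 to 27.2 CPM (-0.05 ± 0.20). The ratio of Edem1 to Edem2 counts, into which no library scaling enters, was 4.14, 4.29, 4.46 and 3.78 in the ZT1 libraries and 3.06, 3.04, 3.5 and 3.03 in the ZT13 libraries. These ratios did not overlap between the groups; the ratio was computed after the values of Edem1 were known and is given without a test.

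Sel1l and Syvn1 form the channel complex of ER-associated degradation, in which SEL1L is the adaptor and SYVN1 (HRD1) the ubiquitin ligase. Sel1l stood at 130, 112, 123 and 144 CPM at ZT1 and at 92.6, 103, 105 and 117 CPM at ZT13. Only ZT13 replicate 4 lay within the ZT1 range, and the log2 fold change was -0.29 ± 0.11 (adjusted p = 0.494 in edgeR). Syvn1, which carries an ERSE, stood at 64.4, 64.5, 64.1 and 56.3 CPM at ZT1 and at 44.3, 36.4, 64.1 and 59.1 at ZT13 (-0.29 ± 0.18). In Syvn1 the lower mean at ZT13 came from replicates 1 and 2.

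The remaining 4 degradation factors differed little. Derl1 and Derl2 encode derlins, membrane proteins of the export channel, and had log2 fold changes of -0.11 ± 0.09 and -0.03 ± 0.24. Os9, a lectin that hands glycoproteins to SEL1L, stood at 226 ± 19.8 CPM at ZT1 and 226 ± 13.8 at ZT13, with a 95% interval of the log2 fold change from -0.21 to 0.20. Herpud1, an ER membrane protein induced by both the ATF6 and the ATF4 branch, stood at 102, 117, 88.7 and 110 CPM at ZT1 and at 109, 90.7, 121 and 141 at ZT13 (0.14 ± 0.15). With TMM factors it was the only member of this role with a positive value (with upper-quartile factors Edem2 and Os9 were also just above 0), and its groups overlapped.

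**Figure D3:**
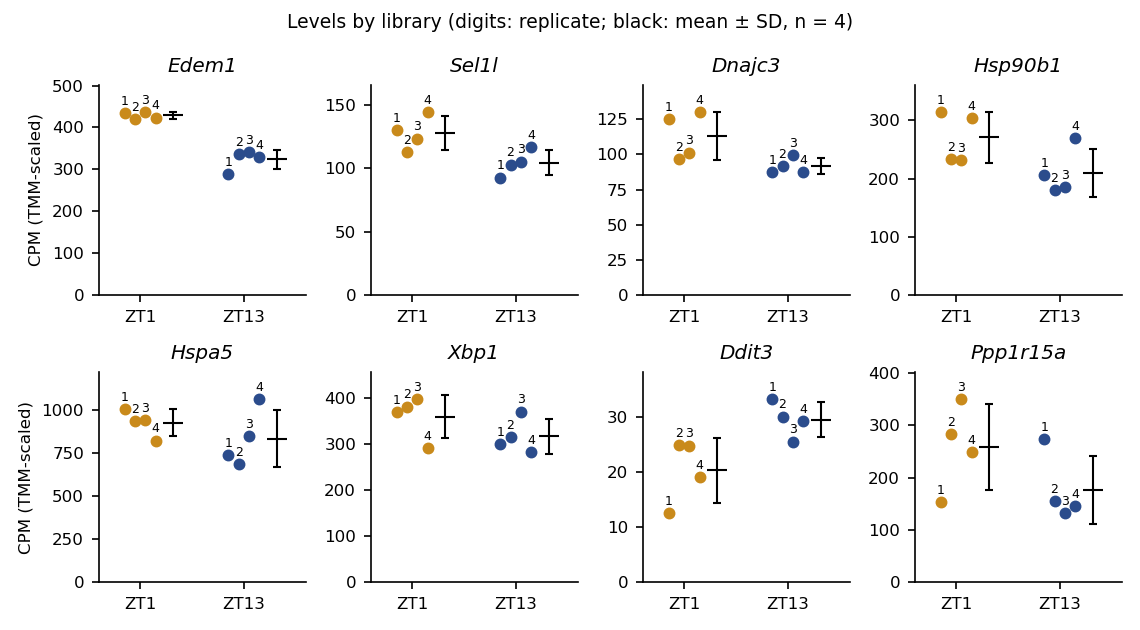
TMM-scaled CPM of 8 members in each library (points, with the replicate number), with the mean and SD of the 4 libraries of a group in black and axes that start at 0. Edem1 separates the groups downward and Ddit3 narrowly upward, while the groups overlap in the other 6 genes.

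Among the 8 folding chaperones and their partners 7 had negative log2 fold changes, with a median of -0.16, where 52.3% of all tested genes were negative. Lower values at ZT13 with an unadjusted p under 0.05 were found for 2 of the 8, and for 4.85% of all tested genes. Hspa5 stood at 1008, 938, 942 and 824 CPM in the ZT1 libraries and at 740, 686, 850 and 1064 CPM in the ZT13 libraries. Its highest and its lowest level were both found at ZT13, and the log2 fold change was -0.15 ± 0.14 (95% interval from -0.46 to 0.15). Hsp90b1 (GRP94, the ER HSP90) stood at 314, 233, 231 and 303 CPM at ZT1 and at 206, 180, 186 and 269 at ZT13. Here ZT13 replicate 4 lay above ZT1 replicates 2 and 3 while the other ZT13 libraries lay below all of ZT1 (log2 fold change -0.37 ± 0.16, adjusted p = 0.531 in edgeR).

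Dnajc3 (p58IPK, a co-chaperone of BiP that also inhibits PERK) stood at 125, 96.6, 101 and 130 CPM at ZT1 and at 87.6, 91.9, 99.7 and 87.5 at ZT13. The groups overlapped only through ZT13 replicate 3 and ZT1 replicate 2 (log2 fold change -0.31 ± 0.12, adjusted p = 0.504 in edgeR). Dnajb9, a co-chaperone that holds IRE1 inactive, stood at 47.1 ± 6.37 and 44.5 ± 4.37 CPM (-0.08 ± 0.13). Hyou1 (GRP170) was low and variable at ZT13, from 5.46 CPM in replicate 2 to 26.0 in replicate 1, against 15.3 to 21.2 at ZT1. Sdf2l1, a partner of BiP co-chaperones, and Creld2, an ER stress-inducible protein, had log2 fold changes of -0.14 ± 0.15 and -0.17 ± 0.17. Manf, a secreted ER protein with trophic activity, was the only one of the 8 with a positive value (0.15 ± 0.25). In Manf ZT13 replicate 4 stood at 49.2 CPM and the other 7 libraries at 21.9 to 35.1, and without that library the log2 fold change was -0.10.

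All 5 lectin chaperones and disulfide isomerases had negative log2 fold changes, with a median of -0.19, and none had an unadjusted p under 0.05. Of all tested genes 52.3% were negative, and of those averaging 50 CPM or more 58.7%. Calr and Canx, the calreticulin and calnexin that hold glycoproteins during folding, had values of -0.19 ± 0.12 and -0.08 ± 0.14. Pdia6 stood at 232, 185, 207 and 223 CPM at ZT1 and at 133, 160, 162 and 246 at ZT13 (-0.27 ± 0.17). In this isomerase 3 ZT13 libraries lay below all ZT1 libraries and the remaining one, replicate 4, above all of them. Pdia4 showed the same order at ZT13, with 30.3, 51.9, 54.1 and 74.5 CPM against 57.6 to 77.5 at ZT1 (-0.28 ± 0.24, and -0.10 without ZT13 replicate 1). Pdia3, the isomerase that works with both lectins, had the smallest difference (-0.05 ± 0.11).

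ZT13 replicate 4 thus held high chaperone levels within its group. Of the 13 chaperone, lectin and isomerase genes, 6 had their highest level of all 8 libraries in ZT13 replicate 4, while 5 had their lowest in ZT13 replicate 2 and 4 in ZT13 replicate 1. Without ZT13 replicate 4 the log2 fold change of Pdia6 was -0.49 (adjusted p = 0.361 in edgeR; adjusted p = 0.0237 in DESeq2), that of Hspa5 -0.29 (edgeR adjusted p = 0.489) and that of Pdia4 -0.50 (edgeR adjusted p = 0.548). Leaving out the low ZT13 libraries moved the values the other way: without ZT13 replicate 1 that of Pdia6 was -0.16 and that of Hspa5 -0.10, and without ZT13 replicate 2 that of Hspa5 was -0.07. After each gene was centred within its group on the log2 scale, the mean pairwise Pearson correlation over the 8 libraries was 0.39 among the 13 genes and 0.61 among the 5 lectin chaperones and isomerases, against 0.02 among the 2886 genes averaging 50 CPM or more. It was 0.34 among the 3 transcription factors, 0.11 among the 9 degradation factors, 0.10 among the 3 sensors and 0.00 among the 5 ATF4-CHOP targets. The last value averages pairs of both signs, such as 0.74 for Chac1 with Ppp1r15a and -0.66 for Asns with Sesn2. All points of these correlations share the same 8 libraries, and they are given as descriptions.

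Markers of neutrophil precursors also varied between the libraries. The list holds 8 markers, of which Elane had the highest level per kb of exon (120 CPM per kb at ZT1 and 107 at ZT13). Elane and Mpo (56.0 and 40.2 CPM per kb) encode azurophil granule enzymes. The cycling gene Top2a stood at 24.9 and 17.8 CPM per kb. The log2 fold changes of the 8 markers went both ways, from -0.48 for Top2a (adjusted p = 0.503 in edgeR) to 0.88 for Ctsg (adjusted p = 0.751 in edgeR). The markers summed to 1326, 659, 494 and 847 CPM in ZT1 replicates 1 to 4 and to 514, 613, 780 and 870 CPM in ZT13 replicates 1 to 4. The sum was thus highest in ZT1 replicate 1 and, at ZT13, in replicate 4, and lowest at ZT13 in replicate 1; all 8 markers were detected in both groups. The mean log2 CPM of the 5 lectin chaperones and isomerases was 7.81, 7.49, 7.56 and 7.69 at ZT1 and 7.18, 7.37, 7.43 and 7.80 at ZT13. Its highest and lowest ZT13 libraries were those of the marker sum. That of the 8 folding chaperones was also highest at ZT13 in replicate 4 (6.30), but lowest in replicate 2 (5.77), with 6.08 in replicate 1. Single markers went both ways. Mpo, Elane, Prtn3 and Ctsg were lowest at ZT13 in replicate 1 and highest in replicate 4. Top2a was highest at ZT13 in replicate 1 (184 CPM), and Cebpe was lowest in replicate 4 (65.5 CPM). The part of the precursor markers in the chaperone levels was not tested. In bulk samples fewer cells of a type and less RNA per cell cannot be told apart.

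**Figure D4:**
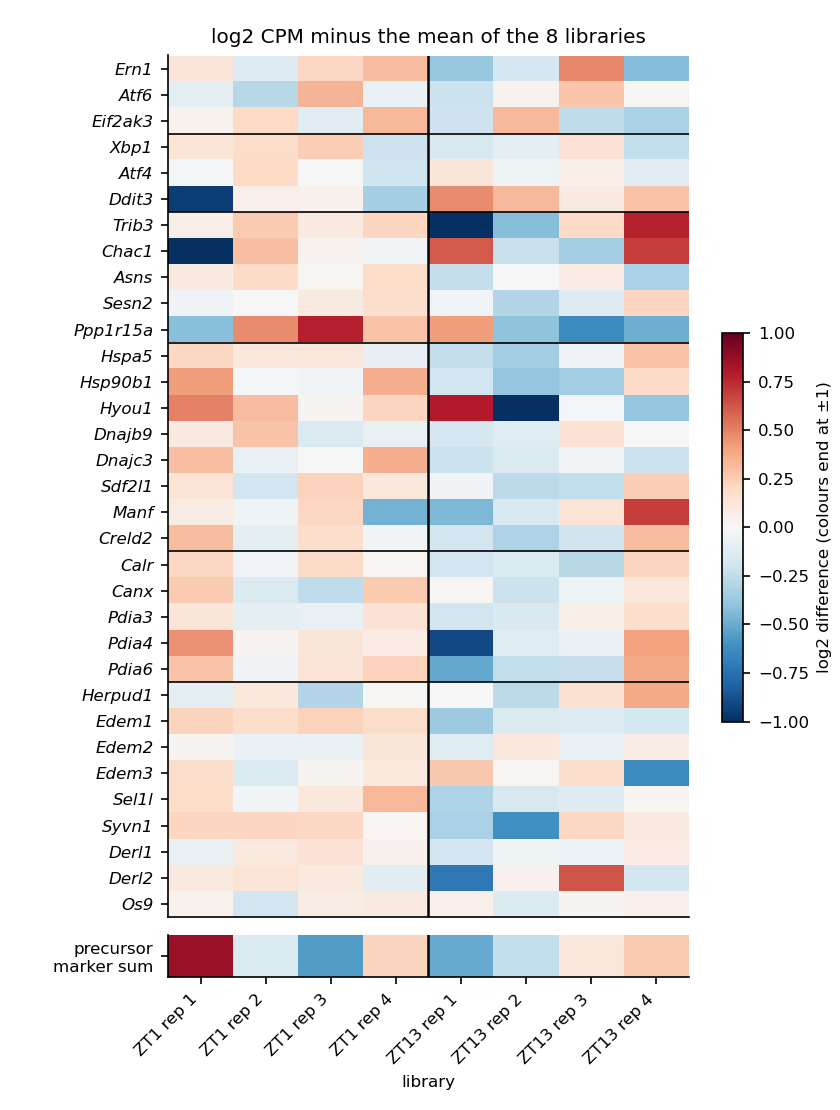
Difference of log2 CPM from the mean of the 8 libraries for each member (rows, grouped by role) and library (columns, ZT1 left and ZT13 right of the line), with the summed CPM of 8 neutrophil precursor markers on the same scale in the bottom row. The 13 chaperone and isomerase genes are mostly red in ZT1 replicate 1 and ZT13 replicate 4 and mostly blue in ZT13 replicates 1 and 2.

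The 8 members with an ERSE, 7 of which are chaperones, lectins or isomerases described above, had negative log2 fold changes, from -0.37 (Hsp90b1) to -0.08 (Canx), with a median of -0.23. Negative values were found for 52.3% of all tested genes and 58.7% of the genes averaging 50 CPM or more. Among the 22 members of that level 19 were negative. Of the 21 members with a window and no ERSE, 17 were negative, with a median of -0.10 and a range from -0.55 to 0.54. The 2 ranges overlap, and the difference between the classes was not tested. Of the 29 genes outside the members with an ERSE in their window, 15 were in the table and 4 were tested, of which 3 were negative. These were Pan2, Adcy3 and Alg12, and the fourth was Hnrnpa3 (0.25 ± 0.18).

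The sensors themselves overlapped between the groups. Ern1 stood at 12.5 to 16.9 CPM at ZT1 and 10.1 to 19.1 at ZT13, with a log2 fold change of -0.21 ± 0.23. Eif2ak3 stood at 34.9 to 47.4 and 30.3 to 47.1 CPM (-0.21 ± 0.17), and Atf6 at 47.1 to 72.1 and 49.0 to 69.0 CPM (0.04 ± 0.16; -0.01 when libraries were scaled by their totals). Xbp1, the transcription factor made active by IRE1, stood at 370, 381, 397 and 290 CPM at ZT1 and at 300, 314, 370 and 283 at ZT13 (-0.18 ± 0.12). Counts per gene do not separate the spliced from the unspliced Xbp1 mRNA. Atf4 had nearly equal means, at 109 ± 12.3 and 110 ± 8.15 CPM, with a 95% interval of the log2 fold change from -0.23 to 0.25; ATF4 is mainly set by translation, which these data do not measure.

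Ddit3 was the member with the highest positive value. It encodes CHOP, a transcription factor downstream of ATF4 that is linked to cell death under lasting ER stress. It stood at 12.5, 24.9, 24.8 and 19.1 CPM in the ZT1 libraries and at 33.2, 30.0, 25.5 and 29.2 CPM in the ZT13 libraries. Every ZT13 library was above every ZT1 library, as for 2.66% of all tested genes in that direction, but the nearest 2 libraries were only 24.9 and 25.5 CPM apart. The log2 fold change was 0.54 ± 0.22 (95% interval from 0.05 to 1.03, adjusted p = 0.519 in edgeR; adjusted p = 0.256 in DESeq2). Without ZT1 replicate 1, the lowest library, it was 0.36. Ddit3 (ENSMUSG00000025408.16) lies on chromosome 10 from 127290774 to 127296288 and shares 68 exonic bases with Mars on the opposite strand. GENCODE M21 lists a further gene identifier named Ddit3 on the same strand, which shares 105 exonic bases with it and was not used here.

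Of the 5 targets of ATF4 and CHOP, 4 had negative log2 fold changes, with a median of -0.15, where 52.3% of all tested genes were negative. In edgeR 0 of the 5 had an unadjusted p under 0.05. Ppp1r15a (GADD34), which restores translation by dephosphorylating eIF2alpha, had the lowest value of all members, with 153, 284, 350 and 249 CPM at ZT1 and 273, 155, 132 and 146 at ZT13. ZT1 replicate 1 and ZT13 replicate 1 went against their groups, and the log2 fold change of -0.55 ± 0.28 was not past the threshold (adjusted p = 0.596 in edgeR). Without ZT13 replicate 1 it was -0.85 (edgeR adjusted p = 0.403, adjusted p = 0.0393 in DESeq2), and without ZT1 replicate 3 it was -0.38 (edgeR adjusted p = 0.761). Asns, the asparagine synthetase, stood at 77.7, 83.5, 74.1 and 83.3 CPM at ZT1 and at 61.9, 73.0, 77.5 and 58.3 at ZT13 (-0.23 ± 0.12). Sesn2, an inhibitor of mTORC1 signalling, had a value of -0.10 ± 0.12. The pseudokinase gene Trib3 and Chac1, which degrades glutathione, were low, at 2.95 to 11.4 and 2.48 to 8.26 CPM over the 8 libraries, with values of -0.15 ± 0.38 and 0.37 ± 0.38. The 4 members with the C/EBP-ATF core were split, with Chac1 and Herpud1 positive and Trib3 and Asns negative.

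The rest of the pathway was read from a list of 100 other genes, of which 96 were tested. Of these 54 were negative, with a median of -0.03, and 0 passed over all genes in edgeR or in DESeq2. At an unadjusted p under 0.05 were 6 with lower and 3 with higher values at ZT13, a share of the list near the background of 9.2% for either direction. Groups without overlap were found for 4 genes lower and 2 higher at ZT13. Over all tested genes these shares were 2.99% and 2.66%. Among the other chaperones and oxidoreductases (20 tested, 12 negative), Ero1l, the oxidase that recharges the isomerases, stood at 250 ± 21.1 CPM in the ZT1 group and 193 ± 21.5 CPM in the ZT13 group, a log2 fold change of -0.38. Its groups did not overlap (adjusted p = 0.403 in edgeR). Mogs, the glucosidase that starts glycan trimming, stood at 46.9 ± 11.0 and 24.8 ± 9.44 CPM (-0.92, edgeR adjusted p = 0.473). P4hb, the main disulfide isomerase, stood at 499 ± 46.7 and 442 ± 52.5 CPM (-0.18).

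In the translocon and signal peptidase list (19 tested, 9 negative) values went both ways. Spcs1 of the signal peptidase stood at 50.2 ± 11.1 and 67.7 ± 3.51 CPM (0.43) and Sec61b of the translocon at 62.9 ± 14.5 and 87.2 ± 19.9 CPM (0.47). Tram1, a membrane protein of the same channel, stood at 317 ± 17.8 and 269 ± 33.2 CPM (-0.24, groups without overlap). In further degradation genes (22 tested, 14 negative) the ligase gene Rnf139 stood at 37.3 ± 1.88 and 28.7 ± 3.59 CPM (-0.38, groups without overlap). Among stress signalling genes (20 tested, 9 negative) Cebpg, a dimer partner of ATF4, stood at 30.4 ± 5.44 and 42.0 ± 3.38 CPM (0.47), again without overlap. Of 15 further ATF4 targets 10 were negative, and Slc3a2, a chain of amino acid transporters, stood at 246 ± 18.8 and 203 ± 18.5 CPM (-0.28, groups without overlap). None of these single differences was past the threshold (edgeR adjusted p from 0.403 for Ero1l to 0.674 for P4hb).

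Total counts per library ranged from 46152067 to 67873023. The ZT13 libraries held fewer detected genes (13945 to 15751, against 15760 to 17701; exact two-sided permutation p = 0.0286, the smallest that 4 against 4 allow) and a larger share of counts in the 10 most abundant genes (21.4 to 24.5%, against 17.9 to 20.3%). Markers of mature neutrophils summed to 61770 to 93500 CPM at ZT1 and 88640 to 126500 at ZT13, most of it S100a8 and S100a9. Csf3r was the only gene of that list with a negative log2 fold change (-0.29, adjusted p = 0.494 in edgeR). The other markers of the list had positive values, from 0.10 for Mmp9 to 0.63 for S100a8 (adjusted p = 0.491 for S100a8 in edgeR). Those of monocytes summed to 2938 to 4051 and 2871 to 4225 CPM, with Ly6c2 at 0.48 (groups without overlap, adjusted p = 0.403 in edgeR) and Ccr2 at -0.41 (adjusted p = 0.510 in edgeR), and those of microglia and macrophages to 684 to 989 and 574 to 922. Markers of B and plasma cells, a cell type with a strong unfolded protein response, summed to 136 to 249 and 154 to 194 CPM, nearly all of it Ighm, while Mzb1 and Igkc stood at or near 0. Those of T and NK cells, dendritic cells, glia and neurons, and endothelium summed to at most 21.4, 110, 190 and 21.6 CPM. The part of these properties in the members' levels was not tested.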

How the data were processed

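From 1 ng of RNA, cDNA was made with SMART-Seq v4 and turned into Nextera XT libraries, which do not mark the strand, and read as 50-base single reads, per the labels' protocols. The deposited values are raw counts, with 1 row per gene and 1 column per sample. Build GRCm38 and the tools STAR 2.7.10b, Subread 2.0.3 (featureCounts), FastQC and DESeq2 1.46.0 come from the submitters' processing notes. Their settings, the annotation release and the treatment of multiply mapping reads: not given in the sources used here. GENCODE M21 supplied coordinates and exon lengths, with 22231 of 23369 identifiers matched after the version was removed. Reads in exons shared with an opposite gene cannot be told apart. Eif2ak3 shares 485 bases with Gm43292, and Hsp90b1 shares 415 with the pseudogene 1810014B01Rik, which is absent from the count table. Derl2 shares 231 bases with Mis12, Manf 166 with 4930524O07Rik and 146 with Dcaf1, and Syvn1 91 with Mrpl49.

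The whole table was fitted with edgeR 4.0.16 (R 4.3.3): filterByExpr with a minimum count of 10 and a minimum total of 15, TMM factors and robust quasi-likelihood F-tests, with Benjamini-Hochberg adjustment over 12610 genes and a threshold of 0.05. Standard errors were taken from F, as the size of the log2 fold change over its root. Centred log2 CPM used a prior of 2 counts. Alternatives were DESeq2 1.42.0, limma-voom (limma 3.58.1), other scalings and filters, each library left out, and replicate blocks. The procedure was tested on simulated data. The members and lists were chosen with earlier results of these data known, and the motifs, ratios and correlations likewise. Named genes are all members and up to 4 other pathway genes per role, those with the smallest p. Cell type markers, further genes with an ERSE and genes that share exons with members were named outside that rule.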

Additional observations from a re-analysis of the deposited data

Results flagged for a closer look

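In 6 of 66 groups of 4 libraries (33 members at 2 times) a single library stood far from the other 3, by the gap to its neighbour relative to the range of the group (Dixon's 95% criterion). Chance gives about 1 in 20 such groups. At ZT13 these were Eif2ak3 in replicate 2 (47.1 CPM, the others at 30.3 to 32.7), Ppp1r15a in replicate 1 (273 CPM, the others at 132 to 155), Creld2 in replicate 4 (39.5 CPM, the others at 25.6 to 27.9) and Os9 in replicate 2 (205 CPM, the others at 230 to 234). At ZT1 they were Syvn1 (56.3 CPM, the others at 64.1 to 64.5) and Derl2 (39.7 CPM, the others at 46.1 to 47.3), both lowest in replicate 4.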

How the results depend on the processing

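With 4 libraries a group and 0 genes past the adjusted threshold in edgeR, directions of small differences depended on the processing: of 33 members, 22 kept their sign in the alternatives computed for all members and 11 did not. DESeq2 called 1 member and 256 genes in all, and 1 to 2 members with a library left out, an alternative chosen after seeing the data; the other member was Ppp1r15a without ZT13 replicate 1 and Pdia6 without ZT13 replicate 4. Members at an unadjusted p under 0.05 in edgeR numbered 5 with all 8 libraries, where 9.2% of all tested genes were. They numbered 2 to 7 with a library left out: 2 without replicate 1 or 4 of ZT1 or replicate 2 of ZT13, 3 without ZT13 replicate 1, and 7 without ZT13 replicate 3 or 4. The counts with a library left out, of edgeR and of DESeq2, stand without the share of all genes in the same setting. They cannot be set against a background.

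Signs changed for Os9 at 0.0007 (DESeq2 size factors), 0.0161 (upper quartile) and 0.0157 (filter of 5 CPM), Edem2 at 0.0129 (upper quartile and filter of 5 CPM), Atf6 at -0.0138 and Atf4 at -0.0479 (library totals), and Atf4 at -0.0111 (no filter). With a library left out the log2 fold change ran from -0.0482 to 0.1771 for Atf6, -0.0527 to 0.0773 for Atf4, -0.5278 to 0.0966 for Trib3, -0.1474 to 0.0038 for Dnajb9, -0.1031 to 0.3007 for Manf, -0.1173 to 0.0053 for Pdia3, -0.0457 to 0.0356 for Edem2, -0.1544 to 0.1094 for Edem3, -0.3126 to 0.145 for Derl2 and -0.0663 to 0.0364 for Os9. The cause was not tested.

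Samples with the same replicate number in the titles did not deviate together (correlations of 0.002, -0.001, -0.04 and 0.02). The library names number ZT13 replicates 3 and 4 as 4 and 5. The samples with library number 4, ZT1 replicate 4 and ZT13 replicate 3, had a correlation of 0.05. The numbers were not taken as pairs. With the replicate block from the titles 3 members had an unadjusted p under 0.05. That count also stands without the share of all genes in the same setting and cannot be set against a background. The replicate block from library names kept only libraries whose number occurs in both groups, which left out ZT1 replicate 3 and ZT13 replicate 4. In that fit the signs changed for Manf (-0.0143), Herpud1 (-0.0478), Edem3 (0.106) and Os9 (0.003). The parts of the block and of the missing libraries in these changes were not tested.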

Other observations

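The spread of Edem1 among the 4 ZT1 libraries was small. Its coefficient of variation was 1.86% at ZT1 and 7.25% at ZT13, and at ZT1 it ranked 21 from the smallest among the 2886 genes averaging 50 CPM or more. For 24 of the 33 members the coefficient of variation was larger at ZT13 than at ZT1 (72.7%), where the same held for 65.4% of all tested genes. Among genes averaging 50 CPM or more it held for 15 of 22 members (68.2%) and for 53.6% of all tested genes. The members with the widest spread at ZT13 were Hyou1 (59.7%, against 13.7% at ZT1), Trib3 (54.2% against 6.46%) and Derl2 (38.9% against 7.68%).

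The E-box CACGTG, the site at which the clock proteins CLOCK and BMAL1 bind, lay in the promoter windows of 2 of 29 members, Calr and Dnajb9 (6.9%), near the 8.09% of all genes with a window. Neither gene had an unadjusted p under 0.05 between ZT1 and ZT13.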
